A study of Mus musculus with 168 samples.

Results

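The genes described here encode proteins that neutrophils store in their granules: Mpo, Elane, Prtn3, Camp, Ltf, Ngp, Lcn2, Chil3, Mmp8 and Mmp9. They were found by gene symbol in the array annotation, 10 of the 19752 genes with a probe set of their own, and each had 1 probe set. The arrays came from male C57BL/6 mice, 6 weeks old, dosed by gavage with vehicle or with a JAK inhibitor, from which immune cells were sorted and their RNA was hybridised to Affymetrix Mouse Gene 1.0 ST arrays. JAK inhibitors block the Janus kinases, which pass signals from cytokine receptors, the G-CSF receptor among them, to STAT transcription factors. The inhibitors are named by code only. The vehicle was 0.5% MC, and 1 granulocyte array came from a mouse given 0.5% MC at pH 3. The labels give no genotype besides the strain.

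Neutrophils make their granule proteins one class after another while they mature in the bone marrow. Myeloperoxidase and the serine proteases of primary (azurophil) granules are transcribed in promyelocytes. Transcripts of secondary (specific) granule proteins, driven in part by C/EBP epsilon, peak in myelocytes and metamyelocytes, and those of tertiary (gelatinase) granules and of late receptors follow, so that the mix of these transcripts in a sorted population reflects how far its cells have matured.

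Granulocytes (GN) were sorted from the spleen as Ly6G+ cells on 16 arrays from 16 mice in 3 experiments, J2, J3 and J6. The plain vehicle was on 5 arrays: 1 in J2 (14 treatments, taken 14 h after the last), 1 in J3 (14 treatments, 15 h) and 3 in J6 (15 treatments, 15 h). The pH 3 vehicle was on 1 array of J2. Prolonged inhibitor treatment followed the schedule of the same experiment's vehicle and was on 6 arrays: 2 of SB00526228 in J2, 3 of SB00526222 in J3 and 1 of SB00526221 in J6. Another 4 arrays of J2 were taken 4 h after 3 treatments (1 of SB00526221, 2 of SB00526222, 1 of SB00526226), a schedule with no vehicle of its own in granulocytes. Compound and experiment therefore coincided for the prolonged schedule, and J3 had a single vehicle array. The other arrays held spleen macrophages (MF, F4/80+, 33), dendritic cells (DC, FLT3+, 20), NK cells (NK1.1+, 27) and CD4+ T cells (T4, 39), and peritoneal macrophages (33, sorted as F4/80+ or as F4/80+ ICAM2+). Spleen MF and T4 also held the pH 3 vehicle (3 arrays each). Prolonged SB00526226 was on spleen MF, DC, NK and T4 arrays. Peritoneal MF and T4 also included SB00513404, prolonged (14 treatments, or 28 on 2 T4 arrays) or single. In both populations some arrays followed a single treatment with vehicle or inhibitor, 1.5 to 28 h before in peritoneal MF and 3 or 18 h before in T4.

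Values are log2 of the deposited RMA intensity, on which array medians ran from 6.90 to 7.15. The label GN was borne out by its markers: the mean of 7 granulocyte identity genes (Ly6g, S100a8, S100a9, Csf3r, Cxcr2, Retnlg and Mmp9, the last also described here) was 12.96 to 13.24 on all 16 arrays, with the J3 vehicle array at 13.11. Means of other markers were 7.60 to 8.32 for macrophages, 6.85 to 7.72 for dendritic cells, 6.30 to 7.81 for B and plasma cells, 6.76 to 7.15 for T cells and 5.34 to 5.99 for NK cells. Correlation with the other granulocyte arrays set 1 array apart, vehicle replicate 4 of J6. The J3 vehicle array was not set apart by that measure, but it held the lowest values of several granule genes, and results that rest on it are given with and without it. The labels do not describe the source of replicates beyond the mouse, so the p-values cover variation among these arrays, part of which may be technical.

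The upstream sequence of 9 of the 10 genes was matched in RefSeq (GRCm38.p6), Mmp9 being the exception. The 250 bases before the annotated start are shown for Camp, Ltf and Chil3, which had the widest ranges in granulocytes, and for Ngp, which varied with them over a narrower range. Capitals mark matches on either strand to TTNNGNAA, a form of the C/EBP site; no other motif was searched. Camp lies at chr9:109849457-109849706 (minus strand), Ltf at chr9:111019042-111019291 (plus strand), Ngp at chr9:110419558-110419807 (plus strand) and Chil3 at chr3:106167565-106167814 (minus strand).
Camp: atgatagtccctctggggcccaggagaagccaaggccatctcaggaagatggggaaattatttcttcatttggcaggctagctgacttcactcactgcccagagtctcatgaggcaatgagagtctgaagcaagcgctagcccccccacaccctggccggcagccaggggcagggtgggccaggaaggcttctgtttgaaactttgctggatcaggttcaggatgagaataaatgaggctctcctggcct
Ltf: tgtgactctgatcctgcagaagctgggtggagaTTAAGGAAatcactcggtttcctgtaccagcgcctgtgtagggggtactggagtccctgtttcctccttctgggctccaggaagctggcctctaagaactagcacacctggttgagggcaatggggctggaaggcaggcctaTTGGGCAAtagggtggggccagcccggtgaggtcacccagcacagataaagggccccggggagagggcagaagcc
Ngp: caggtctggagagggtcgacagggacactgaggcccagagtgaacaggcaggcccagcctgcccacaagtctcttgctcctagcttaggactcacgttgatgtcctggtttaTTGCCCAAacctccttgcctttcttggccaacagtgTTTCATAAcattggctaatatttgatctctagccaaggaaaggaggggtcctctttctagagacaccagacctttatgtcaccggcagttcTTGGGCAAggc
Chil3: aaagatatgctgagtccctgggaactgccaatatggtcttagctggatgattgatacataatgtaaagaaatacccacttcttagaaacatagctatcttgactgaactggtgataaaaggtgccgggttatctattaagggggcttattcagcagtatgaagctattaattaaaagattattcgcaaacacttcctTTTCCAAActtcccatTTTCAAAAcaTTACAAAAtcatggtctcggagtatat

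The motif was present in 5 of the 9 upstream sequences and in 36.9% of all 32841 RefSeq upstream sequences of this length. Ltf held 2 matches (75 and 217 bases before the start), Ngp 3 (11, 102 and 138) and Chil3 3 (27, 37 and 53). Mmp8 held 2 and Lcn2 1. Camp, Mpo, Elane and Prtn3 held none within these 250 bases, which says only that these letters are not in this window.

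The primary granule genes were near the array median in splenic granulocytes. Mpo, which encodes the peroxidase that makes hypochlorous acid, ran from 6.73 to 7.39 over the 16 arrays with a median of 6.97. Elane, the neutrophil elastase gene, ran from 6.48 to 7.39 (median 6.91). Prtn3, which encodes proteinase 3, ran from 6.47 to 7.29 (median 6.72). Their standard deviations over all 16 arrays were 0.17, 0.21 and 0.21. On the 5 vehicle arrays Mpo was 6.92 ± 0.14, Elane 6.95 ± 0.29 and Prtn3 6.79 ± 0.17 (SD, n = 5), and their levels stayed close to the array medians under every treatment.

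The secondary and tertiary granule genes were among the brightest signals, and they fell into a variable and a steady group. Lcn2, the siderophore-binding lipocalin, ran from 13.56 to 14.07 (median 13.86, SD 0.15 over 16 arrays). Mmp9, the gelatinase of tertiary granules, ran from 12.89 to 13.39 (median 13.20, SD 0.15), and Mmp8, the neutrophil collagenase, from 12.174 to 13.07 (median 12.57, SD 0.26). These 3 genes spanned less than 1 log2 unit over all experiments, compounds and schedules.

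Camp, which encodes the cathelicidin antimicrobial peptide precursor, spanned 4.64 log2 units. In J2 it was 11.236 with vehicle, 10.943 with the pH 3 vehicle, 12.803 and 12.041 with prolonged SB00526228, 11.969 with SB00526221 at 4 h, 12.166 and 12.204 with SB00526222 at 4 h and 12.140 with SB00526226 at 4 h. In J3 it was 8.176 with vehicle and 12.813, 12.194 and 12.326 with prolonged SB00526222. In J6 it was 11.922, 10.748 and 11.931 with vehicle and 10.761 with prolonged SB00526221. The single J3 vehicle array was far below every other array. Apart from SB00526221 after the prolonged schedule, the other 9 inhibitor arrays lay above all 6 vehicle arrays of any kind, although by as little as 11.969 against 11.931.

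Ltf, which encodes the iron-binding lactoferrin, spanned 4.92 log2 units. In J2 it was 12.155 with vehicle, 12.239 with the pH 3 vehicle, 13.341 and 12.925 with prolonged SB00526228, and 12.300, 13.438, 13.161 and 12.841 at 4 h with SB00526221, SB00526222 (2 arrays) and SB00526226. In J3 it was 8.516 with vehicle and 12.664, 12.147 and 12.203 with prolonged SB00526222, and in J6 it was 12.404, 11.035 and 11.676 with vehicle and 10.971 with prolonged SB00526221. The J3 vehicle array was again lowest, and the J3 inhibitor arrays overlapped the vehicle arrays of J2 and J6.

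Chil3, which encodes the chitinase-like lectin Ym1, spanned 4.8 log2 units, with the J3 vehicle array again lowest. It was 9.97 with vehicle, 9.34 with the pH 3 vehicle, 11.22 and 10.57 with prolonged SB00526228 and 10.44, 11.01, 11.12 and 10.62 at 4 h in J2. It was 6.41 with vehicle and 10.94, 9.94 and 9.92 with prolonged SB00526222 in J3, and 10.34, 9.03 and 9.57 with vehicle and 8.89 with prolonged SB00526221 in J6. Ngp, the neutrophilic granule protein gene of the cathelicidin and cystatin-related family, ran from 12.05 (the J3 vehicle array) to 13.56, with a median of 13.24. The mean of the 6 secondary granule genes was 10.20 on the J3 vehicle array and 11.53 to 12.95 on the other 15.

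**Figure D1:**
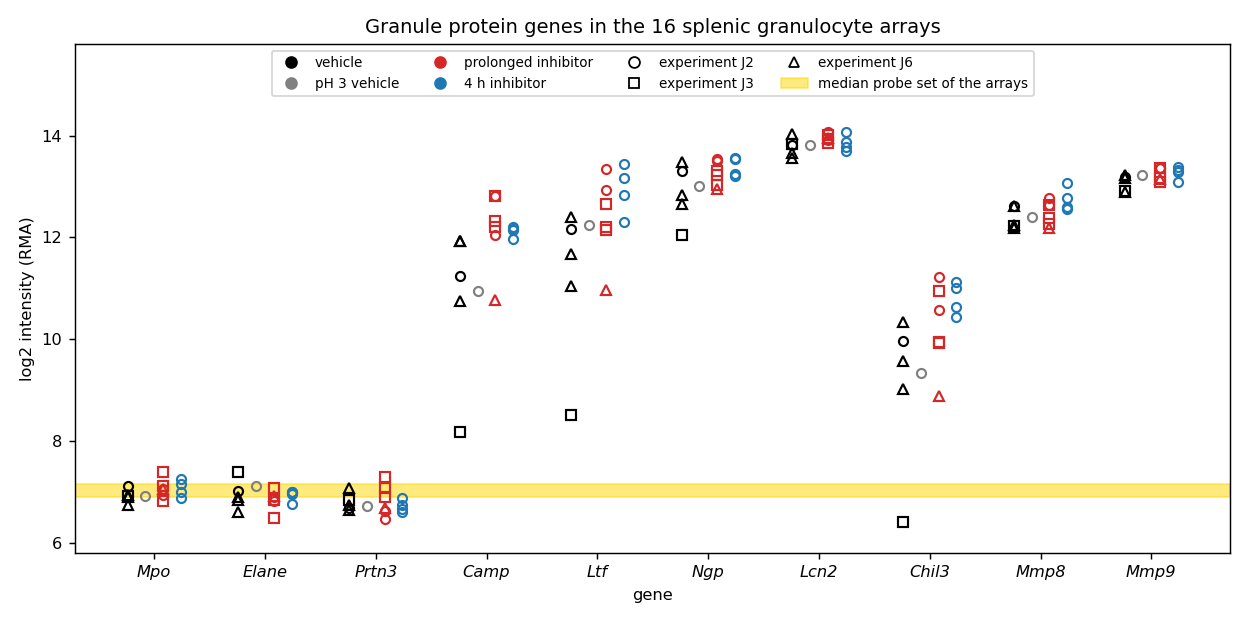
Log2 intensity (y axis) of the 10 granule protein genes (x axis) on each of the 16 splenic granulocyte arrays, coloured by treatment group and shaped by experiment. Mpo, Elane and Prtn3 sit near 7, Lcn2, Mmp8 and Mmp9 lie in narrow bands above 12, and the J3 vehicle array lies far below the others for Camp (8.18), Ltf (8.52) and Chil3 (6.41).

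Prolonged JAK inhibitor treatment was compared with vehicle in a limma fit over all granulocyte arrays with group and experiment as terms, which compares each compound with the vehicle of its own experiment. Camp, Ltf and Chil3 were higher with inhibitor, and they were the 3 genes called of 11089 tested (0.0271% of genes called). Camp differed by 2.40 ± 0.26 (SE; 95% interval 1.84 to 2.97), which is 5.28-fold, with a limma adjusted p of 0.00365. Ltf differed by 2.1 ± 0.25 (1.58 to 2.65; 4.33-fold, limma adjusted p = 0.00391) and Chil3 by 2.1 ± 0.29 (1.49 to 2.73; 4.32-fold, limma adjusted p = 0.0147). More immature granulocytes in a sort and more of these transcripts per cell cannot be told apart in such bulk samples. At an unadjusted p of 0.05, 926 genes passed.

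These calls rested on the J3 vehicle array. Without it no gene was called of 11008 by limma (672 at an unadjusted p of 0.05), and the differences were 0.87 for Camp (adjusted p = 0.797), 0.33 for Chil3 (0.911) and 0.30 for Ltf (0.905). The J3 inhibitor arrays then had no vehicle of their own experiment and were set against the J2 vehicle level. Leaving out 1 of the SB00526222 arrays also ended the calls of Camp and Ltf: the limma adjusted p was 0.0534 and 0.0615 without replicate 1, and 0.0567 for both without replicate 3. They held without replicate 2 (0.028 and 0.0352).

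The other members were not called in this comparison. Ngp differed by 0.63 ± 0.17 (SE; limma adjusted p = 0.313), Mmp9 by 0.21, Lcn2 by 0.14 and Mmp8 by 0.11. Mpo and Prtn3 differed by 0.10 and 0.05, and Elane by -0.33 (limma adjusted p = 0.591). The median difference was 1.37 over the 6 secondary granule genes and 0.01 over all genes tested, of which 5769 were positive.

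**Figure D2:**
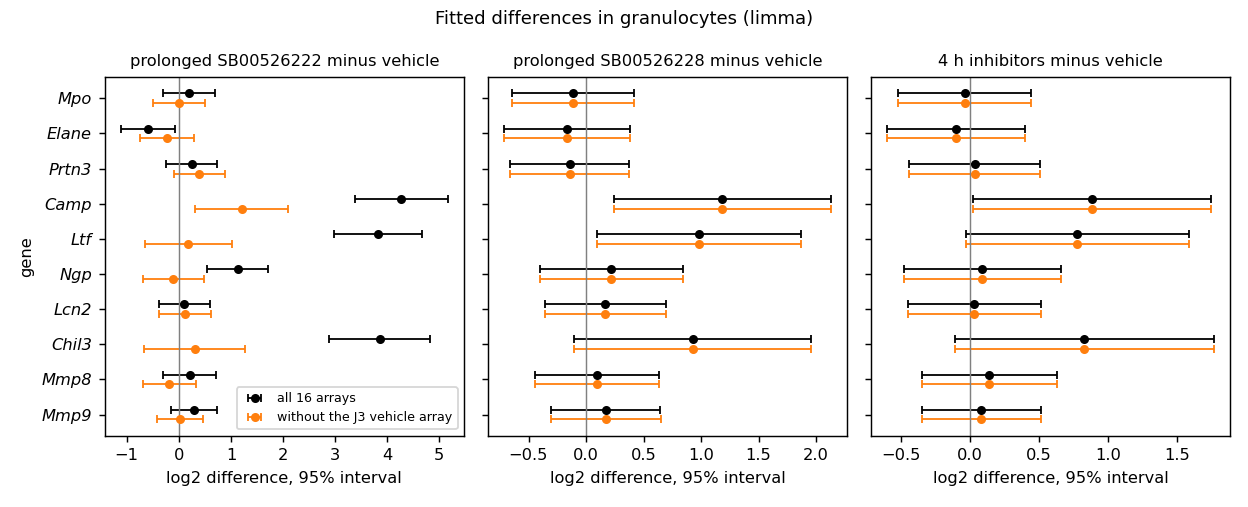
Fitted log2 differences in granulocytes (x axis) with 95% intervals for each of the 10 genes (y axis) in the comparisons with vehicle, with all arrays and without the J3 vehicle array. The estimates for Camp, Ltf and Chil3 under prolonged SB00526222 fall from 4.27, 3.82 and 3.85 to 1.21, 0.18 and 0.30 when that 1 array is left out.

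By compound, the prolonged differences ran in both directions. SB00526222, tested in J3 alone, gave 4.27 ± 0.41 for Camp (SE; 95% interval 3.38 to 5.16; 19.3-fold, limma adjusted p = 0.000762), 3.82 ± 0.39 for Ltf (14.1-fold, 0.000762) and 3.85 ± 0.45 for Chil3 (14.5-fold, 0.00272). These were 3 of the 5 genes called (0.0451% of genes tested), the others being Polr2f and Dpm2, which were named for that reason only. Without the J3 vehicle array no gene was called and the differences were 1.21 for Camp (limma adjusted p = 0.411), 0.30 for Chil3 (0.876) and 0.18 for Ltf (0.919), all against the J2 vehicle level.

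SB00526228 in J2 gave no call (0% of 11089 genes by limma, 462 at an unadjusted p of 0.05). Camp differed by 1.19 ± 0.44 (SE; 95% interval 0.24 to 2.1), Ltf by 0.98, Chil3 by 0.93 and Ngp by 0.22, and both arrays were above the J2 vehicle array for Camp, Ltf, Chil3 and Ngp. SB00526221 in J6, with 1 array, gave -0.77 for Camp, -0.73 for Ltf and -0.75 for Chil3, each with a limma adjusted p of 1, while 16 other genes were called (0.144%). Its Ltf and Chil3 values were the lowest of the 4 arrays of J6, and its Camp value lay between those of the vehicle arrays. The pH 3 vehicle differed from the plain vehicle by -0.29 for Camp and -0.63 for Chil3, with no member called.

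With experiment as a term, granulocytes taken 4 h after 3 treatments were set against 1 plain vehicle array, that of J2. That array followed the prolonged schedule (14 treatments, taken 14 h after the last), and the differences of this fit rest on it. Of the 11089 genes, 5 were called (0.0451%), all of them lower with inhibitor and none a granule gene: the interferon-induced Rsad2, Ifit3 and Ifit3b and the Schlafen genes Slfn5 and Slfn8, named because they were the only calls. Camp differed by 0.88 (limma adjusted p = 0.793), Chil3 by 0.83 (0.796) and Ltf by 0.78. All 4 arrays were above the J2 vehicle array for Camp, Ltf and Chil3, and 2 of 4 were for Ngp. Without the J2 vehicle array, the J2 arrays had no plain vehicle of their own experiment and were set against the J6 vehicle level. In that fit Ltf was called at 4 h (1.23, limma adjusted p = 0.0262) and for SB00526228 (1.43, 0.0281), with 250 and 296 genes called in all. Those differences cannot be told apart from a difference between J2 and J6.

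The schedules themselves did not differ past the threshold. In the difference of 4 h and prolonged inhibitor effects no gene was called by limma (0%, 942 at an unadjusted p of 0.05). Camp differed by -1.52 (adjusted p = 0.583) and Ltf by -1.33, and without the J3 vehicle array by 0.01 and 0.48.

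In all, 6 pairs of compounds were compared within a schedule, each through its own vehicle contrast. Prolonged SB00526222 exceeded SB00526221 by 5.04 ± 0.59 for Camp (SE; 95% interval 3.78 to 6.30; limma adjusted p = 0.00368), by 4.61 for Chil3 (0.011) and by 4.56 for Ltf (0.00387), 3 of 9 genes called (0.0812%). These compounds were tested in different experiments, and without the J3 vehicle array the differences were 1.98 for Camp (limma adjusted p = 0.557), 1.06 for Chil3 (0.819) and 0.92 for Ltf, with no call. SB00526222 against SB00526228 gave no call (0%; Camp 3.08, limma adjusted p = 0.372), and SB00526228 against SB00526221 gave 1 (0.00902%), not a granule gene (Camp 1.96, limma adjusted p = 0.902). At 4 h no member was called in any of the 3 pairs (0.00902%, 0.0902% and 0% of genes called), with Ltf 1.00 higher with SB00526222 than with SB00526221 (limma adjusted p = 0.497).

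With the treatment group held, J3 stood apart from J2 and J6 in the same 3 genes, and the level of J3 in this fit comes from its single vehicle array. A moderated F test over the experiment terms called 5 of 11089 genes (0.0451%), among them Ltf (F = 39.05, limma adjusted p = 0.0238), Camp (F = 33.78, 0.0275) and Chil3 (F = 28.92, 0.034). Between J6 and J2 the differences were 0.30 for Camp (limma adjusted p = 0.874), -0.32 for Chil3 (0.875) and -0.45 for Ltf (0.756). J3 minus J2 gave -3.06 for Camp (limma adjusted p = 0.0738), -3.55 for Chil3 (0.0492) and -3.64 for Ltf (0.0293). J6 exceeded J3 by 3.358, 3.23 and 3.19 (limma adjusted p = 0.00738, 0.0157 and 0.00738). Ngp was not called in the F test (limma adjusted p = 0.316), and no gene was called when array medians were subtracted. The test could not be computed without vehicle replicates 1 or 2, the only plain vehicle arrays of J2 and J3.

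Other genes that mark stages of granulocyte maturation were read in the prolonged comparison. Of 16 other secondary and tertiary granule genes none was called, 8 had an unadjusted p under 0.05 and 15 were positive, with a median of 0.41 against 0.01 over all genes. They included Cd177, the surface partner of proteinase 3 (1.14, limma adjusted p = 0.149), Cybb, the heavy chain of the NADPH oxidase flavocytochrome (1.07, 0.202), and Itgb2l (1.07, 0.232). Of 11 tested cell cycle genes none was called, 8 had an unadjusted p under 0.05 and 10 were positive (median 0.52), among them Ccnb2 (1.03), Ccna2 (1.03) and Top2a (0.98), with limma adjusted p from 0.202 to 0.232. Without the J3 vehicle array the medians were 0.22 for the 6 secondary granule members, 0.25 for the other granule genes (14 of 16 positive) and 0.09 for cell cycle genes (9 of 11 positive).

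The 18 late transcripts, among them those of S100 proteins and chemokine receptors, had a median of -0.07 with 6 positive and no call. Of 10 transcription factors 6 were positive, and Cebpe, which encodes C/EBP epsilon, differed by 0.90 (limma adjusted p = 0.383). Of 4 tested genes from a list of other primary granule and promyelocyte genes, Serpinb1a had the largest statistic (1.43, limma adjusted p = 0.202). Serpinb1a encodes an inhibitor of neutrophil serine proteases, and over 16 arrays it followed the secondary granule mean (r = 0.931). All 7 tested feedback genes of G-CSF and IL-6 signalling through STAT3 were positive with a median of 0.18, Bcl3 at 0.46 and Socs3 at 0.43, without a call. With SB00526228 and at 4 h each list was set against the single J2 vehicle array, and no median over all genes is given beside it. With SB00526228 the medians were 0.57 for the 6 secondary granule members (6 positive), 0.56 for the other granule genes (14 of 16), 0.54 for cell cycle genes (10 of 11) and -0.15 for late transcripts (5 of 18). At 4 h they were 0.46, 0.32 and 0.35 for the first 3 of these lists, again with no call, and Socs3 was 1.34 higher (limma adjusted p = 0.793).

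Markers of other cells also varied between the groups. B and plasma cell markers were 6.45 to 6.98 on vehicle arrays and 6.30 to 7.81 on prolonged inhibitor arrays, dendritic cell markers 6.85 to 7.25 and 7.02 to 7.72, and platelet markers 7.10 to 7.48 and 7.18 to 8.14. H2-Aa, an MHC class II gene of the dendritic cell list, differed by 1.24 (limma adjusted p = 0.261). The J3 vehicle array had the highest mean of all 16 for erythroid (7.036), eosinophil (7.075) and large peritoneal macrophage markers (7.063), and it was near the top for T cell (7.074) and NK cell markers (5.959). The part of other cells in the granule gene differences was not tested. The granulocyte identity genes had a median difference of 0.02, with 5 of 7 positive and none called.

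Across the 16 granulocyte arrays, which are grouped by experiment and include the J3 vehicle array, the variable members rose and fell together. Pearson's r was 0.912 for Camp with Ltf, 0.976 for Ltf with Chil3 and 0.943 for Ltf with Ngp; without the J3 vehicle array (15 arrays) these were 0.742, 0.935 and 0.875, and over the 8 arrays of J2 they were 0.823, 0.872 and 0.807. Camp followed Cebpe with r = 0.836 (0.913 without the J3 vehicle array). Cebpe was 7.95 on the J3 vehicle array and on vehicle replicate 4 of J6, and 8.27 to 10.03 on the rest. Mki67, a proliferation marker, followed Ltf with r = 0.82, and 0.947 without the J3 vehicle array.

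Averaged by class, the secondary granule genes followed the 13 cell cycle genes with r = 0.822 over 16 arrays, 0.901 over 15 and 0.948 over the 8 of J2, so that the relation did not rest on the J3 vehicle array. For the late transcripts r was -0.503, -0.494 and -0.245. Markers of other cells also ran opposite to the secondary granule mean. In the same order of arrays r was -0.636, -0.587 and -0.498 for T cell markers and -0.633, -0.498 and -0.12 for NK cell markers. It was -0.511, -0.29 and -0.258 for eosinophil markers and -0.377, -0.504 and -0.389 for macrophage markers. For B and plasma cell markers it was -0.065, -0.233 and 0.583, and for dendritic cell markers -0.026, -0.138 and 0.1. The part of such cells in the relation was not tested. Within their narrow ranges Mmp8 and Mmp9 followed as well: r with Ltf was 0.754 and 0.778 over 16 arrays, and 0.897 and 0.738 without the J3 vehicle array. Lcn2 did so less closely (0.329 and 0.464). Of the primary granule genes Mpo gave 0.187 with Camp and Prtn3 0.065, while Elane ran opposite to Camp with r = -0.694 over 16 arrays and -0.416 over 15. The genes most like the secondary granule mean over 16 arrays, members left out, were Adpgk (0.941), Cybb (0.934), Serpinb1a (0.931), H2ac15 (0.925) and Anxa3 (0.924). Those most like the mean of Mpo, Elane and Prtn3 were Osbpl10 (0.798), Sox1 (0.788), Krt27 (0.778), Polr2d (0.764) and Slit3 (0.752).

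**Figure D3:**
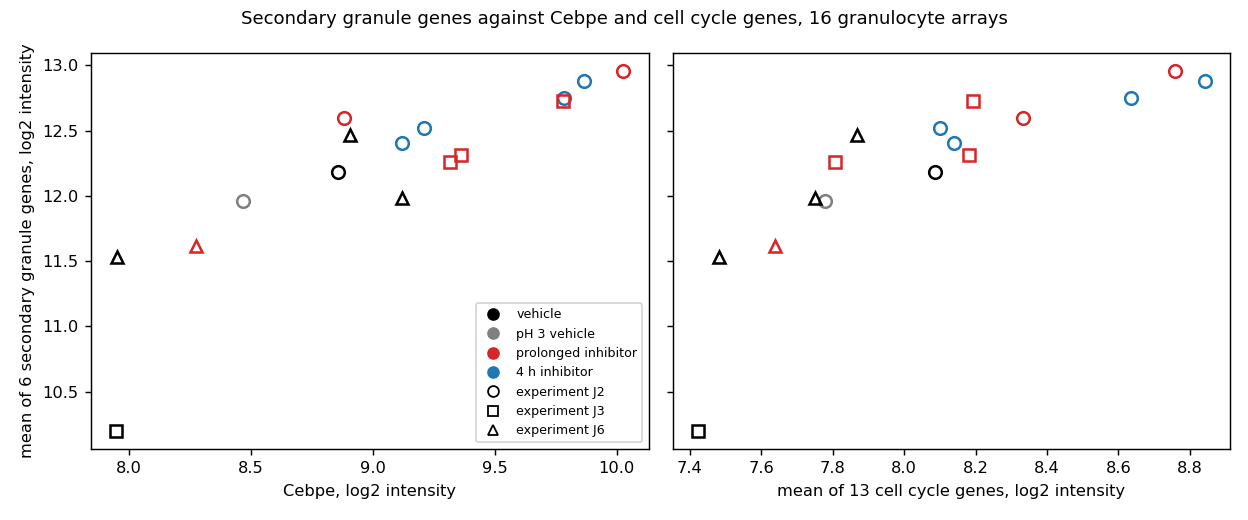
Mean log2 intensity of the secondary granule genes (y axis) against Cebpe and against the mean of the cell cycle genes (x axes, log2) on the 16 granulocyte arrays, coloured by treatment group. The points rise from lower left to upper right in both panels, and the J3 vehicle array lies lowest with a secondary granule mean of 10.20.

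Granule genes were next compared between granulocytes and the other sorted populations on the 39 plain vehicle arrays of 19 mice, with the mouse as a random block (within-animal correlation 0.13). Camp, Ltf, Ngp, Lcn2, Chil3, Mmp8 and Mmp9 were higher in granulocytes than in each of the 5 other populations, while 35.2% (spleen MF), 33.5% (DC), 27.7% (NK), 33.1% (T4) and 33.9% (peritoneal MF) of the 12614 genes tested were called higher in granulocytes. These members had been picked as granulocyte genes, so their direction here checks the sort and is no independent result. The filter on low values also favoured it. On vehicle arrays outside granulocytes Ltf reached at most 5.94 and Mmp8 at most 5.97, below every array median. Both therefore entered through granulocyte arrays alone, and Camp, Ngp and Chil3 passed the array median on few other arrays. Ngp was 6.70 (DC) to 7.85 (peritoneal MF) higher, Mmp8 6.97 to 7.65, Lcn2 4.52 to 7.37, Ltf 5.49 to 5.75, Camp 3.97 to 4.19, Chil3 3.02 to 4.45 and Mmp9 3.9 to 6.27. Mpo and Elane did not pass the filter on low values. For Lcn2, Mmp8 and Mmp9 every granulocyte array was above every array of the other populations. The share of all genes for which this held was not counted, so it describes these genes only.

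**Figure D4:**
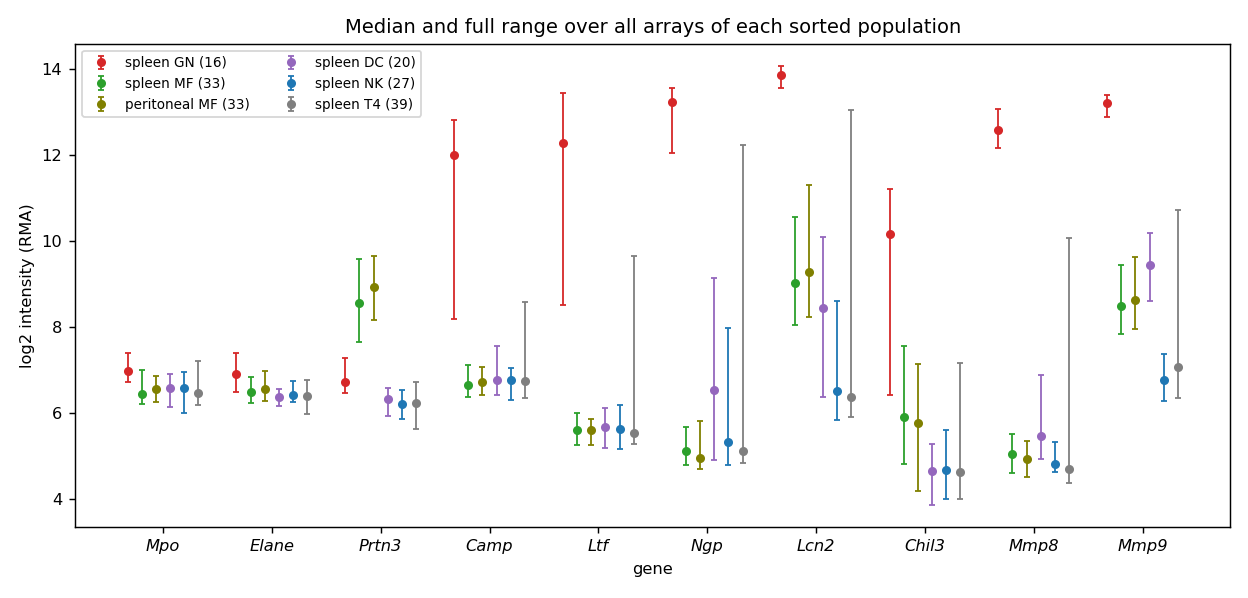
Median (point) and full range (bar) of log2 intensity (y axis) of each granule gene (x axis) over all arrays of each of the 6 sorted populations. All genes but Prtn3 have their highest median in granulocytes, Mpo and Elane by less than 1 log2 unit. Prtn3 has its highest medians in the arrays labelled peritoneal (8.93) and spleen macrophages (8.56).

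Prtn3 went the other way in macrophages. It was 2.1 lower in granulocytes than in spleen MF (limma adjusted p = 2.2e-14) and 2.2 lower than in peritoneal MF (1.39e-14), and 0.40, 0.44 and 0.50 higher than in DC, NK and T4 (limma adjusted p = 0.04, 0.0723 and 0.00802). Over all arrays Prtn3 ran from 8.16 to 9.64 in peritoneal MF (median 8.93) and from 7.65 to 9.58 in spleen MF (median 8.56), so no macrophage array overlapped the granulocyte arrays. By experiment it was 8.19 ± 0.29 in J2 (n = 12), 8.86 ± 0.14 in J3 (n = 5), 8.45 ± 0.47 in J6 (n = 5) and 8.80 ± 0.61 in J8 (n = 11) in spleen MF, and 8.86 ± 0.36 in J12 (n = 9), 9.21 ± 0.31 in J23 (n = 10) and 8.79 ± 0.32 in J25 (n = 14) in peritoneal MF (SD over arrays of all treatments). Elane, its neighbour on chromosome 10, stayed at the level of the other populations in macrophages, with a highest value of 6.97 outside granulocytes. In the arrays labelled spleen MF, Gata6, a gene of large peritoneal macrophages, averaged 11.07 (J8) to 11.19 (J6) by experiment. In peritoneal MF, Gata6 averaged 11.11 (J12) to 11.22 (J25). The spleen and peritoneal labels were thus not set apart by this marker, and the reason was not tested.

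Lcn2 and Mmp9 had intermediate levels in phagocytes. Lcn2 had a median of 9.28 in peritoneal MF (8.23 to 11.3), 9.03 in spleen MF (8.04 to 10.6) and 8.43 in DC (6.37 to 10.1), against 6.51 in NK and 6.37 in T4. In peritoneal MF it was 8.6 ± 0.47 in the F4/80+ sort (n = 9) and 9.55 ± 0.62 in the F4/80+ ICAM2+ sort (n = 24), sorts that belonged to different experiments and cannot be told apart from them. Mmp9 had medians of 9.43 in DC, 8.48 and 8.6 in spleen and peritoneal MF, 7.08 in T4 and 6.77 in NK. Chil3 was low in macrophages (medians 5.91 and 5.78), with single arrays up to 7.56.

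Ngp, Camp and Ltf, whose medians outside granulocytes were low, were used to read granulocyte transcripts in the other sorts. Ngp exceeded the array median on 7 of 20 DC arrays, 1 of 27 NK arrays, 1 of 39 T4 arrays and 0 of 33 arrays of either macrophage population. In DC it ran from 4.92 to 9.13 (median 6.5), with 6.60 ± 1.24 in J2 (n = 10), 6.5 ± 0.95 in J3 (n = 4) and 6.42 ± 1.54 in J6 (n = 6), so that the spread lay within experiments. The highest DC array, prolonged SB00526221 replicate 3 of J6, had Ngp at 9.13, Lcn2 at 9.83, Camp at 7.57 and S100a8 at 7.43, but Ly6g at 5.51. Among NK arrays prolonged SB00526221 replicate 6 of J8 stood out with Ngp at 7.98 and Lcn2 at 8.6, also with Ly6g low (5.71). Pearson's r of Ngp with Lcn2 was 0.747 over the 20 DC arrays and 0.868 over the 27 NK arrays. Other granulocyte genes followed Ngp to differing degrees. In DC r was 0.762 for Ltf and 0.572 for Camp, but 0.363 for S100a8, 0.245 for S100a9, 0.232 for Mmp8 and -0.11 for Mmp9. In NK it was 0.598 for Ltf, 0.392 for S100a9, 0.285 for S100a8, 0.217 for Mmp8 and 0.137 for Camp.

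A single T4 array, prolonged SB00526228 replicate 1 of J2, carried the whole secondary and tertiary set. Ngp was 12.224 on it against a median of 5.11 and a maximum of 5.98 on the other 38 T4 arrays, and Lcn2 was 13.06 against 6.36 and 6.82. Mmp9 was 10.72, Mmp8 10.07, Ltf 9.65, Camp 8.59 and Chil3 7.16, where the highest other T4 values were 9.32, 5.85, 5.94, 7.02 and 5.27. Mpo (6.66), Elane (6.33) and Prtn3 (6.12) were within the range of the other arrays. Of granulocyte identity genes Ly6g was 10.16, S100a9 11.16, S100a8 9.32, Csf3r 11.20, Cxcr2 10.53 and Retnlg 10.29.

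The title number ties this T4 array to the mouse of granulocyte array SB00526228 replicate 2. Its log2 difference from that granulocyte array ran from -0.85 (Lcn2) to -3.45 (Camp) among the secondary and tertiary members. A share was also taken of the median linear intensity of all 16 granulocyte arrays, with the T4 median subtracted from both. By this share the members differed widely. Lcn2 was at 57.0% and Ngp at 49.4%, but Mmp8 at 17.3%, Mmp9 at 16.7%, Ltf at 15.5%, Chil3 at 10.6% and Camp at 6.97%. S100a9 (22.2%), Csf3r (20.0%), Cxcr2 (19.8%), Retnlg (19.4%) and Ly6g (12.95%) were near the second group, and S100a8 was at 5.09%. The share was thus not the same for all granulocyte transcripts. T cell markers stayed at the level of the other T4 arrays (mean 11.76, others 11.64 to 12.225), whereas dendritic cell markers averaged 9.64 (others 6.18 to 7.51, and 7.49 on the granulocyte array of the same mouse) and macrophage markers 7.22 (6.26 to 8.19). Which cells or RNA gave these signals was not tested.

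**Figure D5:**
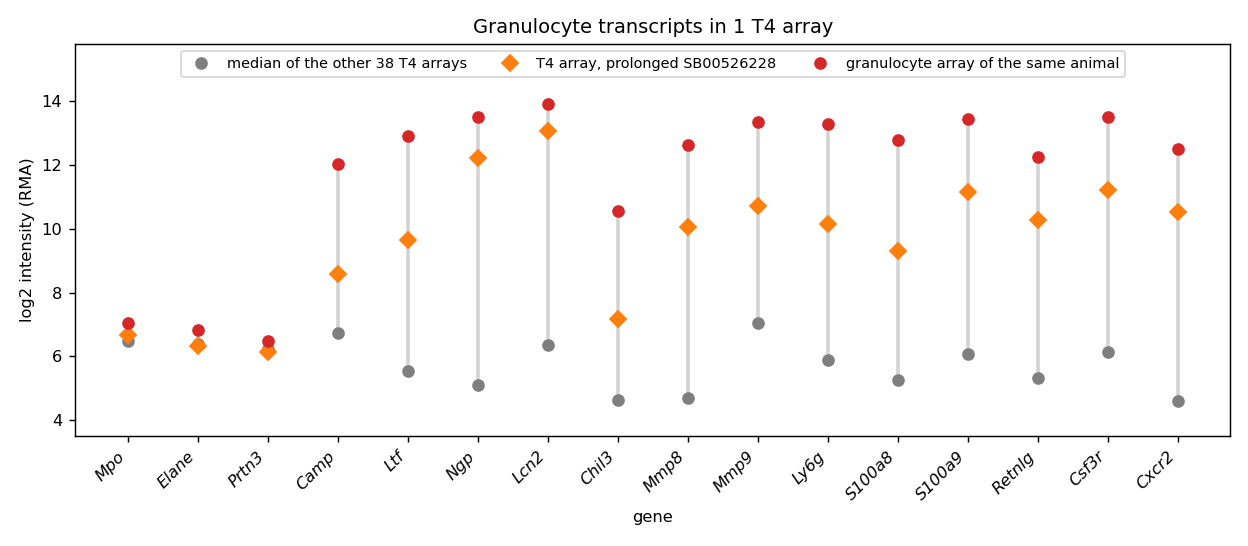
Log2 intensity (y axis) of granule and granulocyte genes (x axis) on the T4 array of prolonged SB00526228 replicate 1, on the granulocyte array of the same mouse and as the median of the other 38 T4 arrays. Ngp (12.224) and Lcn2 (13.06) on the T4 array come closest to the granulocyte array (13.50 and 13.91), while Mpo, Elane and Prtn3 lie together in all 3.

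Over all arrays outside GN, each centred on its population, the genes most like the mean of Camp, Ltf and Ngp were Il1b (r = 0.763), S100a9 (0.738), Retnlg (0.722), Cd33 (0.702) and Itgax (0.692). Without that T4 array they were Mfap2 (0.593), A230072E10Rik (0.58), Pax8 (0.568), Creb5 (0.558) and Tinagl1 (0.554), so the myeloid neighbours rested on 1 array.

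No granule gene that was tested in another population passed the threshold. Few could be tested: Prtn3, Lcn2 and Mmp9 in both macrophage populations, Camp, Ngp, Lcn2 and Mmp9 in DC, Lcn2 and Mmp9 in NK and Mmp9 in T4. Prolonged and late peritoneal arrays were not tested. For prolonged inhibitors against vehicle in spleen MF, DC, NK and T4, 10 member tests passed the filter on low values and limma called 0, with 1 at an unadjusted p under 0.05 (background 0.00911% of genes in MF and 0% in DC, NK and T4). That 1 was Prtn3 in spleen MF, lower by 0.45 with inhibitor: its difference was -0.45 ± 0.15 (SE; 95% interval -0.77 to -0.14; limma adjusted p = 0.581). In DC, Lcn2 differed by 0.88 (limma adjusted p = 0.979) and Ngp by 0.54. At 4 h 10 member tests gave 0 calls by limma and 0 at an unadjusted p under 0.05 (background 0.0182% in MF, 0% in DC, 0.118% in NK and 0.00889% in T4). In peritoneal MF 1.5 to 6 h after a single treatment, 3 members were tested and 0 called, where 7 of 10810 genes were (0.0648%).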

How the data were processed

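The authors deposited linear intensity values per probe set, made with Affymetrix Power Tools and RMA per the submitters' processing notes; its versions, and the arrays normalized jointly, are not stated in the sources used here. Log2 was taken with no pseudocount. Of 24922 probe sets 21425 had 1 gene symbol in the platform annotation, 1399 several and 2098 no annotation, and the last 2 kinds were left out. Of several probe sets per gene (19752 genes) the one with the highest mean was kept. Precision is limited by the number of arrays, which carry no read depth. Groups, experiments (first part of the title) and mice (title number within an experiment, 80 mice) came from the labels, and replicate numbers follow only the order of the arrays.

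Each population was fitted with limma 3.58.1 in R 4.3.3, with group (compound by schedule) and experiment as fixed effects, over genes above their array's median on at least 3 arrays of the population. Tests were two-sided with Benjamini-Hochberg adjustment over all genes tested and a threshold of 0.05, and compounds were weighted by their arrays. A group of 1 array is assumed to vary like the others. Populations were compared on vehicle arrays with the mouse as a random block. Alternatives were no or random experiment terms, no filter, quantile normalization, subtracted medians, array weights and the mean of probe sets. Arrays standing apart were also left out together, and arrays were left out in turn. A fit of J2 arrays alone was added for the 4 h comparisons, and the J3 difference of means for prolonged SB00526222. The tests were checked on simulated data. Upstream sequences are RefSeq's (GRCm38.p6).

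Besides the 10 members, up to 3 genes per list with the largest moderated statistic were named, and the 5 genes most correlated with each class mean; other names were chosen after their values were seen. Members and lists were chosen with earlier results of these data known.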

Additional observations from a re-analysis of the deposited data

Results flagged for a closer look

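Differences between compounds stood out for 3 genes. In granulocytes the prolonged effect of SB00526222 exceeded that of SB00526221 by 5.04 for Camp, 4.61 for Chil3 and 4.56 for Ltf on the log2 scale, and limma called each (adjusted p = 0.00368, 0.011 and 0.00387). Each compound was tested in another experiment, SB00526222 against 1 vehicle array, and without that array the differences were 1.98, 1.06 and 0.92 with no call.

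For the mean of Camp, Ltf and Ngp, the gap between an end array and the next was taken as a share of the group's range. It passed Dixon's critical value in 3 of 18 groups examined outside granulocytes, where chance gives about 1 in 20. The 10 granule genes on the 5 granulocyte vehicle arrays, which span 3 experiments, gave 0. The J3 vehicle array came near the critical value of 0.71 for Camp (0.685), Chil3 (0.666) and Ltf (0.648). The highest of 4 spleen MF arrays of prolonged SB00526226 was at 6.20 (share 0.831, critical value 0.829). The highest of 7 NK arrays of prolonged SB00526221 was at 7.01 (0.662 and 0.568). The lowest of 5 T4 arrays of prolonged SB00526221 was at 5.66 (0.711 and 0.71). The MF and T4 groups thus passed by a narrow margin. The T4 array of prolonged SB00526228, alone in its group, could not be examined.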

How the results depend on the processing

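In granulocytes the count of members called for prolonged inhibitors was 3, and 0 without the experiment term (Camp 1.35, limma adjusted p = 0.552) and 0 with experiment as a random block (Camp 1.57, limma adjusted p = 0.494); with 1 array left out it ran from 0 to 3. For SB00526222 it was 3, again 0 under both of these settings, and 0 to 3 with 1 array left out. For SB00526228 and for 4 h it was 0, and 0 to 1 with 1 array left out. For the experiments it was 3, 0 with array medians subtracted, and 1 to 3 with 1 array left out. SB00526222 against SB00526221 went from 3 to 0 without the J3 vehicle array. The cause of these changes beyond the arrays left out was not tested. The 7 members higher in granulocytes than in all other populations became 9 with no filter and stayed 7 with any array left out. No called value reversed: of 1211 values of single members 1141 kept their direction and side of the threshold, 25 were no longer called, 2 became called, and 43 changed sign while uncalled on both sides. Signals near the array median limit what Mpo, Elane and Prtn3 can show in granulocytes. No paired analysis was possible because each mouse gave 1 granulocyte array and replicate numbers follow array order only.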
